A study of Arabidopsis thaliana with 6 samples.

Results

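The genes described here are 207 probe sets whose signal was lower in phosphate-starved (P-starved) than in nutrient-replete (replete) shoots of Brassica oleracea, by a fixed margin, both on the replicate 1 arrays and on the arrays of replicates 2 and 3. They were chosen from 10894 eligible probe sets, those with a mean signal of 50 or more, among 19578 listed on all 6 arrays. A probe set was a member if log2(signal + 16) was lower by 0.5 or more on the P-starved replicate 1 array than on the replete one. For replicates 2 and 3 the group means had to differ by as much, with both P-starved arrays below both replete arrays. The members are thus chosen by the contrast that they show, on all arrays of the series, so their differences are a description and no test of them is given.

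RNA came from shoots of var. alboglabra, the doubled haploid line A12dH, and was measured on the ATH1 array of Affymetrix, which carries Arabidopsis thaliana probes, so these are cross-species measurements; the labels give Arabidopsis as the organism and B. oleracea as the genetic material. There were 3 P-starved and 3 replete arrays, numbered 1 to 3 in each group. All plants were of this line and, per the labels, grown in compost with 16 h of light at 22 °C and deionised water each day. How and for how long phosphate was withheld, and whether the 3 samples of a group were separate plants or harvests, is not stated in the labels. The series asks which genes of this crop respond to phosphate starvation.

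Phosphorus is taken up by roots as inorganic phosphate and is built into nucleic acids, phospholipids and ATP. Plants short of phosphate are known to induce transporters and secreted phosphatases, largely through PHR1-type transcription factors, and to replace membrane phospholipids with other lipids. Ribosomal RNA is one of the largest stores of organic phosphorus in a leaf. Triose phosphate exported from the chloroplast feeds sucrose synthesis, which releases phosphate again.

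The replicate 1 arrays list 22810 probe sets and the other 4 arrays 19642, and levels differ widely between these 2 sets of arrays. Each set holds both groups. Array medians over the 19578 probe sets were 67.8 and 67.2 on the P-starved and replete replicate 1 arrays, and 43.8 to 46.5 on the rest. Of 10 shoot markers 6 were listed under a name on all arrays, with rbcL at 1693 or more on each. PSBY was the dimmest of them, at 490 and 522 on replicate 1 and 17.2 to 74.5 on replicates 2 and 3. Among the 10 root markers 2 were listed, EXPA7 at 6.70 to 25.2 and PYK10 at 63.7 to 134. In bulk tissue fewer cells of a type and less RNA per cell cannot be told apart.

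The 207 members are 1.90% of the eligible probe sets. They are 14.4% of the 1436 probe sets that met the replicate 1 condition and 19.7% of the 1053 that met the condition on replicates 2 and 3. Over all eligible probe sets the 2 conditions were met by 13.2% and 9.67%. With the group labels swapped throughout, which gives the probe sets consistently higher in P-starved shoots, 165 met the rule, or 1.51%. The higher conditions alone were met by 12.8% on replicate 1 and by 10.4% on replicates 2 and 3. With labels swapped on replicate 1 alone 102 met the rule (0.936%), and with labels swapped on replicates 2 and 3 alone 141 did (1.29%). As the rule used this contrast, these shares describe the choice of members and nothing is read from them. The gap between the counts as labelled and with labels swapped throughout depended on the settings. At a margin of 1 in place of 0.5 it was 28 against 5, with 11 under either partial swap, while at a margin of 0.4 it was 328 against 291. With an offset of 64 in place of 16 it was 107 against 48, while with an offset of 4 it was 251 against 238. With each array centred on its own median the count was 250 as labelled and 122 with labels swapped throughout. Where each replicate number was taken as a pair and a drop of 0.5 or more was asked of all 3 pairs, 125 probe sets met the rule, against 75 with the labels swapped throughout, and 118 of the 125 were among the 207.

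**Figure D1:**
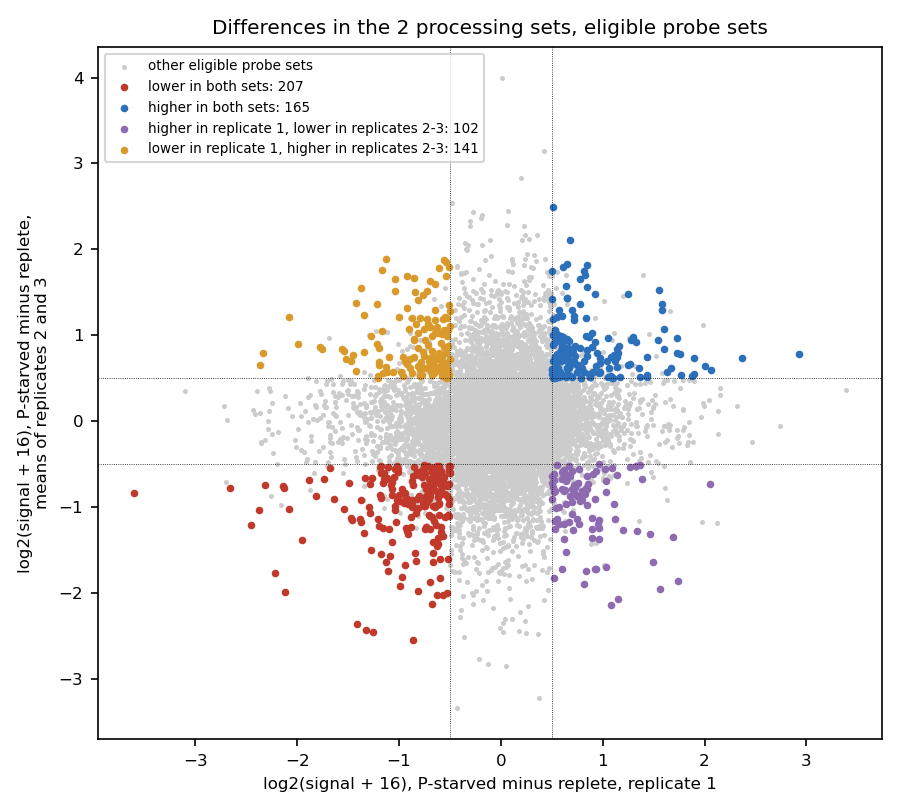
Difference in log2(signal + 16), P-starved minus replete, for replicate 1 (x axis) and for the means of replicates 2 and 3 (y axis), 1 point for each of 10894 eligible probe sets. Coloured points met the rule as labelled (207, lower left), with labels swapped throughout (165, upper right) or swapped in 1 set (102 and 141), and dotted lines mark 0.5.

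**Figure D2:**
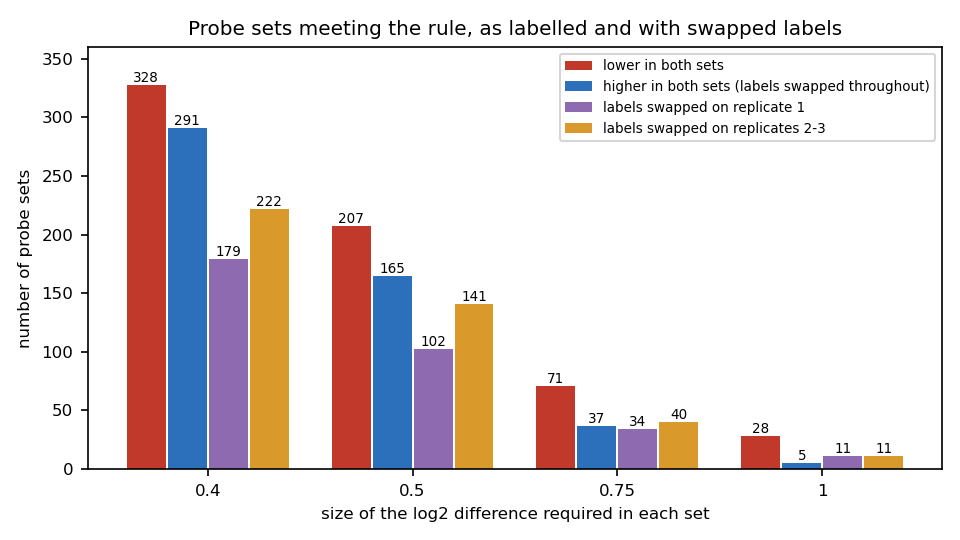
Number of probe sets (y axis) that met the rule as labelled and under the swapped labels, by the size of the log2 difference asked of each set (x axis). The count as labelled is the highest of the 4 at each margin, from 328 at 0.4 to 28 at 1, where labels swapped throughout give 5.

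No single probe set passed a test over the whole table. With limma 0 of 19578 probe sets were lower and 0 were higher at an adjusted p of 0.05, the smallest adjusted p being 1.000, and at an unadjusted p under 0.05 there were 105 lower and 61 higher. With the replicate number as a block the calls were again 0 in each direction, with a smallest adjusted p of 0.801 and 541 lower and 462 higher before adjustment. Where no gene differs, a share of 0.05 of the 19578 is expected at an unadjusted p under 0.05. Nothing is read from the unadjusted counts. As no call was made after adjustment, every difference below is under the level that these 6 arrays resolve for a single gene. Standard errors (SE) are those of the limma fit with group as the only term, on log2(signal + 16), a scale that understates the change of dim probe sets. Their median over all probe sets was 0.517, and 0.261 in a fit with the set of arrays as a block.

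The median mean signal was 116 for members, against 118 over all eligible probe sets, and the upper quartiles were 260 and 212. All 6 arrays were at 50 or more in 37.2% of members, against 51.0% of eligible probe sets. In replicate 1 their differences ran from -3.61 to -0.50 with a median of -0.78, and in replicates 2 and 3 from -2.54 to -0.51 with a median of -0.88. The drop was larger on replicate 1 for 91 members and on replicates 2 and 3 for 116. For 136 of 207 the weaker of the differences lay above -0.75, near the margin. The nearest probe sets with 1 gene are given here, with values for replicate 1 and then for replicates 2 and 3. Just inside it were AIM1 at -0.506 and -0.733, AT2G39210 at -0.508 and -0.520 and AT3G07090 at -0.510 and -0.571. Just outside were AT1G10180 at -0.496 and -0.789, AT3G53740 at -0.483 and -1.23, and AT3G26070 at -0.807 and -0.483.

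In 81 members all 3 P-starved arrays lay below all 3 replete arrays, a pattern seen in 2.02% of the eligible probe sets, and in 126 the arrays overlapped across the 2 sets. At least 1 P-starved array was under a signal of 16 in 53 members, or 25.6%, against 14.7% of the eligible probe sets. At least 1 replete array was that dim in 4 members, or 1.93%, against 14.1%. A rule that asks for low P-starved and higher replete values leans towards such a split. The difference between the sets of arrays was larger than that between the groups in 97 members, a count not made over the eligible probe sets. The absolute log2 difference between the sets had a median of 0.91 in members and of 0.86 over all eligible probe sets.

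The platform's annotation gives 1 gene for 91 members, several for 10 and none for 106, so 44.0% of members carry 1 name against 55.7% of the eligible probe sets. Probe sets of the _s_at type, whose probes match more than 1 transcript, made up 8.21% of members and 3.58% of eligible probe sets. Genes of the plastid genome were 5.49% of the named members and 1.12% of the named eligible probe sets. A name stands for the Arabidopsis gene that the probes were designed for, and several Brassica copies of that gene may share the signal. In the text below 57 of the 91 are placed in 19 groups by known role. The 34 others were given no group. The groups were written after the members were known and hold members alone. Their counts thus have no share of the eligible probe sets beside them, and nothing is read from them.

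In 28 members both differences were at -1 or less, and 15 of these carry 1 gene. Only these 15 are described here, and they are genes of unlike roles. Signals are given below for replicates 1, 2 and 3 in that order. AT3G05220, which encodes a protein with a heavy-metal-associated domain, had signals of 13.5, 7.20 and 113 on the P-starved arrays, against 112, 181 and 223 on the replete arrays. P-starved replicate 3 was thus level with replete replicate 1, and the log2 difference over all arrays was -2.03 ± 0.72 (SE, n = 3 per group). AT3G47840, a pentatricopeptide repeat protein gene of a family that acts on organelle RNA, had 17.5, 8.20 and 8.50 in P-starved shoots, against 73.1, 66.8 and 173 in replete shoots. Its groups did not overlap, and its difference of -2.04 ± 0.54 rests on P-starved signals at or near 16 and under it.

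AT5G03430, of the phosphoadenosine phosphosulfate reductase family, had 28.4, 9.20 and 9.70 in P-starved shoots, against 155, 52.8 and 47.3 in replete shoots, a difference of -1.57 ± 0.60. Within each set of arrays the P-starved values were lower, and over all 6 the lowest replete array was above the highest P-starved one. INO80 (AT3G57300), the ATPase of a chromatin remodelling complex that moves nucleosomes, had 43.7, 12.0 and 13.8 in P-starved shoots, against 119, 84.0 and 55.1 in replete shoots. Its groups did not overlap either, with a difference of -1.42 ± 0.55.

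The steadiest of these genes was AT2G25730, with 101, 72.6 and 81.9 in P-starved shoots, against 253, 176 and 228 in replete shoots. No array of it was dim, and its difference was -1.20 on replicate 1 and -1.21 on replicates 2 and 3. PUB49 (AT5G67530), a U-box protein of the ubiquitin ligase family, had 32.4, 19.5 and 48.6 in P-starved shoots, against 110, 81.7 and 96.5 in replete shoots. AT5G50340, which encodes a RadA-like DNA repair protein, had 22.3, 57.6 and 19.8 in P-starved shoots, against 90.2, 96.8 and 95.1 in replete shoots. The groups did not overlap in either gene, and for AT5G50340 the replete arrays lay close together.

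AT5G56940, a nuclear gene for an S16 protein of an organelle ribosome, had 35.1, 10.4 and 34.5 in P-starved shoots, against 95.4, 115 and 82.1 in replete shoots. AT4G24350, of the phosphorylase superfamily, had 110, 64.9 and 21.4 in P-starved shoots, against 256, 130 and 215 in replete shoots. For the DnaJ protein gene AT4G19580 the values were 16.4, 58.5 and 9.60 in P-starved shoots, against 73.3, 94.2 and 68.3 in replete shoots. None of these 3 genes had overlapping groups, with differences of -1.47 ± 0.50, -1.53 ± 0.53 and -1.25 ± 0.57.

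As in AT3G05220, in the last 5 of the 15 the arrays overlapped between the groups. AT1G72160, a patellin gene whose product binds membrane lipids and acts in vesicle traffic, had 174, 18.7 and 37.3 in P-starved shoots, against 409, 47.1 and 147 in replete shoots. AAE15 (AT4G14070), an acyl-activating enzyme, had 60.8, 2.20 and 8.20 in P-starved shoots, against 208, 26.4 and 26.6 in replete shoots. The replicate 1 arrays read both genes far higher than the others did, so that P-starved replicate 1 was above a replete array of the other set. AT5G23520, of the Smr domain proteins, AT5G38300 and AT1G56080 overlapped too, with differences over all arrays of -1.31, -1.29 and -1.16.

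**Figure D3:**
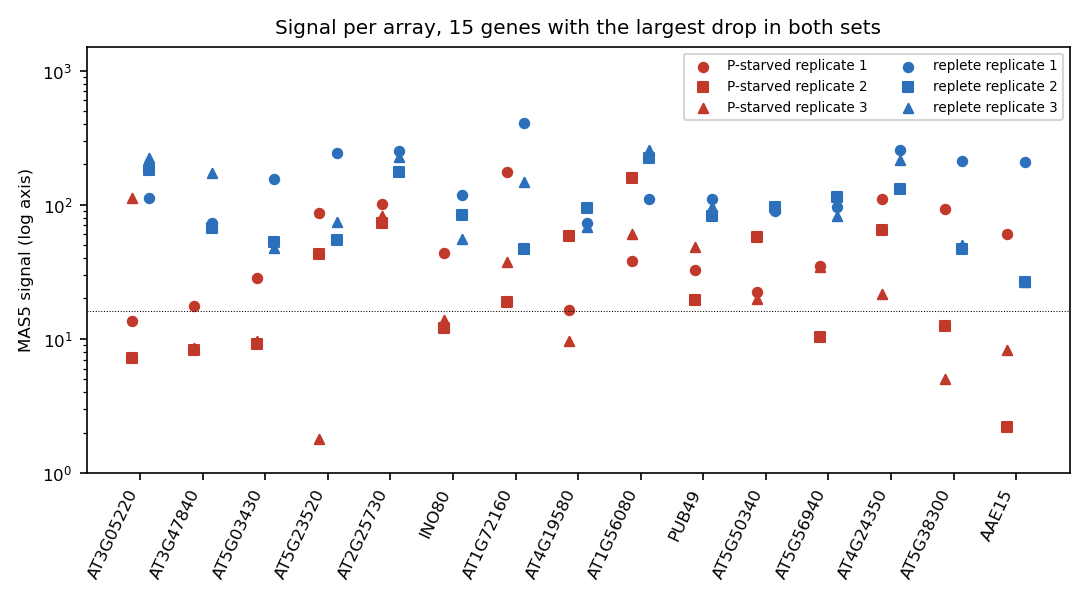
MAS5 signal on a log axis (y) for the 15 named members with the most negative weaker difference (x), P-starved arrays left of replete arrays, 1 marker shape per replicate number, with a dotted line at 16. In 9 of the 15 all P-starved markers lie below all replete markers, and in the other 6 they overlap.

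Genes of RNA processing and binding were 6 of the members, all encoding helicases, a spliceosome subunit or an RNA-binding protein. AT2G33730, a DEAD-box RNA helicase, had 504, 157 and 30.2 in P-starved shoots, against 897, 335 and 333 in replete shoots. AT5G64270, the SF3b subunit that binds the branch site of introns, had 179, 27.1 and 22.2 in P-starved shoots, against 300, 131 and 132 in replete shoots. Within each set both genes were lower in P-starved shoots, by -0.81 and -0.70 on replicate 1 and by -1.97 and -1.86 on replicates 2 and 3. The DEAD-box helicase gene AT5G54910 had 38.9, 6.30 and 42.2 in P-starved shoots, against 65.1, 124 and 138 in replete shoots. AT1G27900, another RNA helicase, had 59.7, 50.7 and 71.9 in P-starved shoots, against 97.8, 77.3 and 138 in replete shoots. Neither AT5G54910 nor AT1G27900 overlapped between the groups.

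A list of 20 spliceosome helicases and core proteins, written after the members were known, had 6 eligible genes, and 3 of these 6 were members, against 1.50% of all eligible probe sets with 1 gene. As the list was written to hold members, nothing is read from this count. The members were AT2G33730, AT5G64270 and AT3G26560, the last named outside the rule for named genes. Of the others, LIS, a splicing factor gene, had -0.24 and -0.63, AT2G47250 had -0.34 and 0.18 and AT4G38780, which encodes a PRP8-like protein, had -0.49 and 0.50 on replicate 1 and on replicates 2 and 3. The 3 that were no members were thus all lower on replicate 1, and 1 of 3 was lower on the other arrays.

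Of the chaperone genes 4 were members, including subunits of the chaperonin CCT, a ring-shaped complex that folds actin and tubulin. AT3G03960, its theta subunit, had 55.5, 106 and 81.6 in P-starved shoots, against 131, 171 and 233 in replete shoots, with no overlap and differences of -1.04 on replicate 1 and -0.98 on replicates 2 and 3. AT1G24510, the epsilon subunit, had 885, 588 and 379 in P-starved shoots, against 1313, 839 and 672 in replete shoots, a difference of -0.62 ± 0.41. P-starved replicate 1 exceeded a replete array there only across the sets. The DnaJ protein gene AT5G16650 had 103, 74.2 and 44.3 in P-starved shoots, against 201, 124 and 139 in replete shoots.

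Among 9 CCT genes, 5 were eligible, and the 2 members were 40.0% of these, against 1.50% of all eligible probe sets with 1 gene. This list too was written after its members were known, so the share could not be 0 and nothing is read from it. The other 3 were AT5G20890 at -0.55 and -0.05, AT5G26360 at 0.02 and -0.47, and AT3G11830 at -1.04 and -0.18, for replicate 1 and for replicates 2 and 3. These 3 were below 0 on replicates 2 and 3, but did not reach the margin there. A further pair, AT5G16070 and AT3G02530, was too dim to be eligible.

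Plastid genes made up 5 of the named members, and in each of these the drop was larger on replicate 1. The plastid RNA polymerase transcribes the genes of the chloroplast, among them those of the photosystems. rpoA, its alpha subunit, had 811, 780 and 953 in P-starved shoots, against 2070, 1594 and 1170 in replete shoots, with no overlap between the groups and a difference of -0.88 ± 0.32. rpoC2, another subunit, had 344, 170 and 155 in P-starved shoots, against 1770, 286 and 279 in replete shoots. It is named outside the rule for named genes, as the fifth plastid member.

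rpl22, which encodes a protein of the plastid ribosome, had 362, 927 and 398 in P-starved shoots, against 4580, 1219 and 981 in replete shoots. Its difference on replicate 1, -3.61, was the largest of all members, while on the others it was -0.83. ndhH, of the plastid NADH dehydrogenase-like complex that cycles electrons around photosystem I, had 1213, 290 and 312 in P-starved shoots, against 5381, 559 and 481 in replete shoots. atpI, which encodes part of the ATP synthase in the thylakoid membrane, had 2564, 890 and 698 in P-starved shoots, against 4887, 1592 and 1372 in replete shoots. Its drop was much alike in the sets, at -0.93 and -0.89, unlike that of the other 4.

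Of the plastid genes 68 were eligible and 5, or 7.35%, were members, against 1.50% of all eligible probe sets with 1 gene. Of the 63 that were no members, 61 had a lower P-starved value on replicate 1 and 28 on replicates 2 and 3. Over all 68 the medians were -0.69 and 0.03. The replicate 1 condition was met by 58.8% of the 68, against 13.2% of all eligible probe sets, and that on replicates 2 and 3 by 13.2%, against 9.67%. The replicate 1 condition thus rests on 1 pair of arrays that read nearly all plastid genes lower. The 25S ribosomal RNA control had 881 in P-starved replicate 1, against 3767 in replete replicate 1, and 175 and 335 in P-starved replicates 2 and 3, against 111 and 101 in replete ones. The part of these control levels in the result was not tested.

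The polymerase had 2 members among 4 eligible genes, and no other plastid complex listed had over 1. Its other genes were rpoC1 at -2.70 and -0.71, whose arrays overlapped on replicates 2 and 3, and rpoB at -2.27 and 0.39. In the Arabidopsis annotation atpI and rpoC2 lie with 1 gene between them, rps2, and no other 2 members with 1 gene lay within 3 places of each other in gene order. rps2 had -3.10 on replicate 1 and 0.35 on replicates 2 and 3, so it was no member. None of 20 eligible photosystem genes and none of 6 cytochrome b6f genes was a member, and their medians on replicates 2 and 3 were 0.30 and 0.56.

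**Figure D4:**
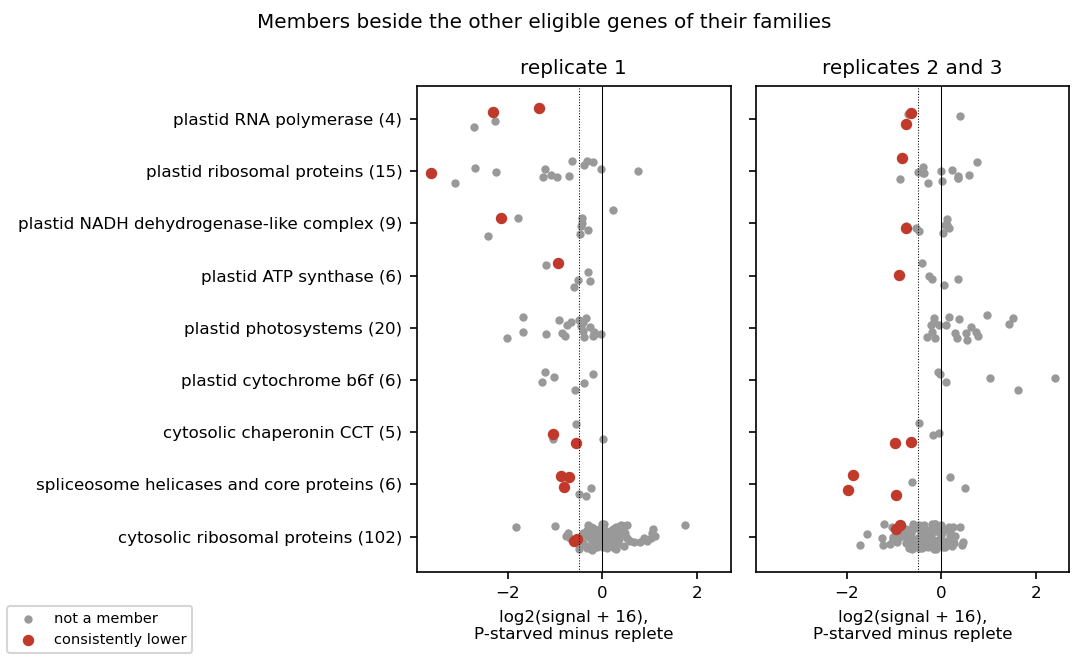
Difference in log2(signal + 16), P-starved minus replete (x axis), on replicate 1 (left) and on replicates 2 and 3 (right) for the eligible genes of 9 families (y axis, number of genes in brackets), members in red. Plastid families lie mostly below 0 on replicate 1 and spread around 0 on replicates 2 and 3, and the 2 CCT and 3 spliceosome members are below -0.5 in both panels.

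Cytosolic ribosomal protein genes, the protein part of the translation machinery, gave 2 members of 102 eligible genes, or 1.96%, close to the 1.90% of all eligible probe sets and the 1.50% of those with 1 gene. AT5G35530, which encodes protein S3 of the small subunit, had 447, 626 and 673 in P-starved shoots, against 688, 1752 and 926 in replete shoots. AT2G01250, for protein L7 of the large subunit, had 817, 2879 and 2039 in P-starved shoots, against 1186, 4528 and 4357 in replete shoots. The first did not overlap between the groups, though its nearest arrays, at 673 and 688, lay close together. The second overlapped across the sets, which read it at unlike levels. Of the 102 genes, 27 met the condition on replicates 2 and 3, or 26.5%, against 9.67% of all eligible probe sets, and 8 met that on replicate 1, or 7.84%, against 13.2%. On replicate 1 the 102 had a median of 0.02 and on replicates 2 and 3 one of -0.30.

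Enzymes of amino acid metabolism were 4 members. AT5G10920, argininosuccinate lyase of arginine synthesis, had 41.7, 98.7 and 109 in P-starved shoots, against 84.4, 201 and 203 in replete shoots. Within each set it stood at about the same ratio, with -0.80 on replicate 1 and -0.87 on the others. The gene listed as AT-HF (AT4G26900), an enzyme of histidine synthesis, had 60.1, 71.4 and 112 in P-starved shoots, against 92.4, 131 and 154 in replete shoots. D2HGDH, which oxidises D-2-hydroxyglutarate in mitochondria, had 115, 38.8 and 201 in P-starved shoots, against 171, 314 and 318 in replete shoots. ALDH6B2, an aldehyde dehydrogenase of valine breakdown, had 36.6, 46.9 and 49.1 in P-starved shoots, against 112, 49.4 and 156 in replete shoots, where the lowest replete array was close to the P-starved ones. Of the other eligible arginine genes OTC had -0.15 and 0.17 and AT2G37500 -0.25 and 0.44, and of the histidine genes HISN5B had -0.34 and 0.14 and IGPD 0.19 and -0.04.

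Sugar metabolism had 2 members. AT1G70820, a phosphoglucomutase-like protein gene, had 281, 625 and 399 in P-starved shoots, against 448, 650 and 816 in replete shoots, with -0.64 and -0.53 in the sets. ATSPS4F (AT4G10120), a sucrose phosphate synthase, had the largest drop of all members on replicates 2 and 3, -2.54, and is named outside the rule for that reason. Its signals were 59.6, 9.40 and 7.50 in P-starved shoots, against 122, 127 and 126 in replete shoots. The replete arrays agreed closely for ATSPS4F, and 2 of its P-starved arrays were under 16. The phosphatase gene AT2G35840, which acts next in sucrose synthesis, was too dim to be eligible, and it was the only other listed gene of that step named on all arrays.

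Cofactor and nucleotide genes were 4, and none of them overlapped between the groups, as was so for 39.1% of all members. AT1G55090, the glutamine-dependent NAD synthetase, had 84.2, 52.3 and 16.8 in P-starved shoots, against 181, 136 and 167 in replete shoots, with a difference of -1.53 ± 0.50. AT5G48960, a 5'-nucleotidase family gene, had 334, 309 and 202 in P-starved shoots, against 576, 371 and 357 in replete shoots. The gene listed as hemb2, 5-aminolevulinate dehydratase of tetrapyrrole synthesis, had 115, 109 and 27.9 in P-starved shoots, against 202, 135 and 117 in replete shoots. For AT5G48960 and hemb2 the gap between the groups was narrow, with 334 against 357 and 115 against 117 as the nearest arrays.

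Lipid genes among the members were AIM1, AT1G16560 and AAE15, and all 3 overlapped across the sets. AIM1, of peroxisomal fatty acid breakdown, had 191, 399 and 420 in P-starved shoots, against 278, 586 and 815 in replete shoots. AT1G16560, for a Per1-like protein, had 19.4, 387 and 354 in P-starved shoots, against 75.9, 660 and 773 in replete shoots. Both were read lower on the replicate 1 arrays than on the others.

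Of the peptidase genes, 6 in all, the brightest were scpl48, AT5G45650, MPPBETA and MAP1D. The serine carboxypeptidase-like gene scpl48 had 47.1, 377 and 168 in P-starved shoots, against 127, 387 and 397 in replete shoots. AT5G45650, a subtilase, had 185, 191 and 81.4 in P-starved shoots, against 287, 219 and 247 in replete shoots, the 1 gene of the 6 without overlap. MPPBETA, of the peptidase that cuts targeting signals from mitochondrial proteins, and MAP1D, a methionine aminopeptidase, had differences over all arrays of -0.56 ± 0.61 and -0.78 ± 0.74. Both are about as large as their SE, which was 0.21 and 0.34 with the set of arrays as a block.

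Defence genes were 2 and transport genes 3. AT1G69840, which encodes a hypersensitive induced reaction protein of the plasma membrane, had 493, 453 and 514 in P-starved shoots, against 759, 805 and 684 in replete shoots. It had the smallest SE of the members named here, with a difference of -0.61 ± 0.24, the same size in each set (-0.61 and -0.60). CHX20, a cation/H+ exchanger of guard cells, had 45.4, 22.5 and 41.9 in P-starved shoots, against 80.3, 87.8 and 69.5 in replete shoots. The major facilitator gene AT2G39210 had 339, 135 and 179 in P-starved shoots, against 489, 207 and 256 in replete shoots. AT4G31040, a plastid CemA-like protein gene, had 320, 37.2 and 53.1 in P-starved shoots, against 495, 73.9 and 138 in replete shoots.

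Further single genes came from ubiquitin ligases, kinases, terpenoid synthesis and transcription. The U-box gene AT1G23030 had -0.92 and -0.91 on replicate 1 and on replicates 2 and 3, and the F-box gene AT2G23160 had -0.63 and -0.54. AT1G54610, a protein kinase, had 60.9, 12.4 and 13.8 in P-starved shoots, against 100, 200 and 32.8 in replete shoots, so that its drop of -1.82 on replicates 2 and 3 leans on replete replicate 2. The terpene synthase gene AT1G70080 had 56.9, 60.0 and 51.9 in P-starved shoots, against 149, 94.7 and 146 in replete shoots, without overlap. INO, known as a YABBY transcription factor of the ovule, had 151, 44.7 and 13.7 in P-starved shoots, against 242, 72.2 and 63.4 in replete shoots. A glyoxalase family gene, AT1G67280, had -1.08 and -0.74.

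**Figure D5:**
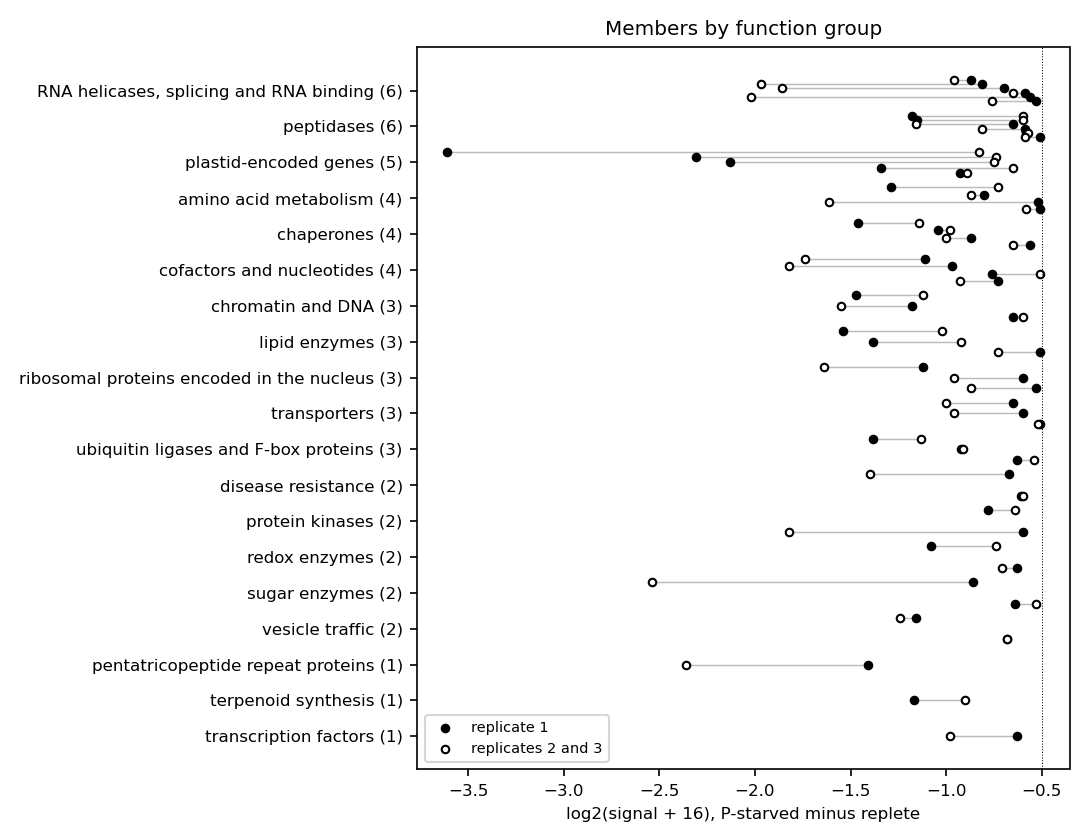
Difference in log2(signal + 16), P-starved minus replete (x axis), for the 57 members with a known role in 19 groups (y axis, number of members in brackets), filled for replicate 1, open for replicates 2 and 3, joined for each member. All lie at or below -0.5 by the rule, and the plastid genes reach -3.61 on replicate 1 but no further than -0.89 on the others.

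Among the members for which the annotation gives no gene, the 3 brightest were 250498_at, 244979_at and 245701_at. 250498_at had 3599, 1167 and 855 in P-starved shoots, against 6314, 2538 and 1609 in replete shoots. 244979_at had 1813, 476 and 477 in P-starved shoots, against 9478, 967 and 1019 in replete shoots. 245701_at had 1811, 1795 and 1371 in P-starved shoots, against 3663, 1823 and 2919 in replete shoots. The last did not overlap between the groups, though 1811 and 1823 lay side by side.

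For 3 members the array holds a further probe set of the same gene, which the rule did not use. In none of the 3 was a difference of that probe set below 0, for AT4G29490 on replicate 1 alone. AT5G13030, of the selenoprotein O family, was a member through 250276_at, with 19.9, 171 and 168 in P-starved shoots, against 39.4, 226 and 366 in replete shoots. Its further probe set 250275_at had 335, 73.4 and 58.3 in P-starved shoots, against 299, 106 and 26.0 in replete shoots, differences of 0.16 and 0.18. On replicates 2 and 3 both P-starved values of that probe set lay between the replete ones. AT2G17410, an ARID domain gene, had -0.65 and -0.60 as a member, and 0.26 and 0.88 by 264876_at, a probe set of mean signal 38.9. AT4G29490, a metallopeptidase gene, had -0.65 on replicate 1 as a member, and 0.19 by 253719_at, with 262 in P-starved and 228 in replete replicate 1, the other arrays not listing it. Only 3 genes could be compared in this way, and the annotation gives both probe sets the same gene in each case.

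Of 30 phosphate starvation genes 2 had a probe set listed on all arrays with that gene alone. Both were eligible and neither was a member. The others could not be read under a name, whatever their signal. AT1G63010, a vacuolar phosphate transporter, had 307, 356 and 313 in P-starved shoots, against 427, 328 and 315 in replete shoots. LPR1, a ferroxidase gene of the root growth response to low phosphate, had 63.7, 56.5 and 74.9 in P-starved shoots, against 25.9, 25.7 and 58.5 in replete shoots.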

How the data were processed

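Shoot RNA of 3 P-starved and 3 replete samples was measured on ATH1 arrays. The authors deposited a linear signal intensity for each probe set, made with MAS5 per the submitters' processing notes, with a 2% trimmed mean of 100 on each array. A software version and any probe mask are not stated. Here 64 control probe sets were left out and log2(signal + 16) was taken of the values as deposited. With 3 arrays a group, precision is limited. Genes come from the platform annotation, which covers 14016 probe sets, 13513 with 1 gene and 503 with several. Of the 13513, 13436 were found in the TAIR10.1 gene list. No coordinates or sequences were used.

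The members and lists were chosen with earlier results of these data known. Product names were not at hand, so roles and partner lists (CCT, spliceosome, arginine, histidine, sucrose, ribosomal genes) were written by hand after the members were known, and each of these lists holds a member. Named are the 15 one-gene members whose weaker difference is most negative, the 4 brightest of each role group of 3 or more and the brightest of smaller groups, those next to the margin, the 3 brightest unnamed, those with a further probe set, and phosphate starvation genes.

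The whole table of 19578 probe sets was fitted with limma 3.58.1 in R 4.3.3 (lmFit and eBayes with a trend on level, group alone as the term, two-sided, adjusted by Benjamini-Hochberg). The steps were tested on simulated data. For limma these were drawn without a difference between the 2 sets of arrays, so they do not show how the fit behaves with one. The samples of a group may be technical repeats, and a p-value then covers technical spread alone. Deviations from the group means of same-numbered arrays correlated across probe sets at 0.84, 0.55 and 0.53 for replicates 1, 2 and 3. The numbers were therefore treated as pairs in an alternative rule and as a block in an alternative limma fit. The main fit, which gave the SE after each ± sign, had no such term. Replicates 2 and 3 of unlike number gave 0.52 and 0.53, and their differences within each group correlated at 0.016, so the pairing follows the 2 sets of arrays. Alternatives covered offset, margin, minimum signal, scaling, overlap, pairing and each array left out.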

Additional observations from a re-analysis of the deposited data

How the results depend on the processing

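The count of 207, against 165 with labels swapped throughout, became 251 against 238 with an offset of 4 and 107 against 48 with 64. It was 328 against 291, 71 against 37 and 28 against 5 at margins of 0.4, 0.75 and 1. With a minimum mean signal of 25, of 100 and with none it was 277 against 247, 123 against 79 and 322 against 279. It was 202, 211 and 250 under the other scalings (trimmed mean over shared probe sets, quantiles within sets, median of each array), where labels swapped throughout gave 167, 144 and 122. Without the overlap condition it was 274 against 240, with no overlap over all 6 arrays 81 against 67, and as replicate pairs (replicate block) 125 against 75. Of the 57 members with a role 32 remained with an offset of 64 and 33 with a minimum of 100. Leaving out an array gave 247 to 1053 probe sets, since fewer conditions are then set. Without either replicate 1 array, which drops the replicate 1 condition, it was 1053, against 1131 with labels swapped, and without P-starved replicate 2 it was 348 against 290. The calls by limma stayed at 0 under each alternative, the replicate block included. Without P-starved replicate 1, which leaves the sets unbalanced between the groups, the differences of AT2G23160, AT1G16560 and AT5G13030 were 0.22, 0.08 and 0.11, and without replete replicate 1 they were -1.33, -2.07 and -1.50. No other value of the 59 named members changed sign. Promoter motifs were not searched here. With 3 arrays a group and signals under 16 in many members, the size of single drops is poorly fixed.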
